A study of Rattus norvegicus with 40 samples.

Results

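DNA methylation was compared between 2 colonies of the Dahl salt-sensitive rat in T cells from blood, at 10 weeks of age and on LS chow. Every region of the deposited table of that comparison was taken, 34559 regions of 630893 in all 15 tables of the series, and 8 of its 40 libraries stand behind it. Dahl SS rats are inbred and become hypertensive when fed salt. The first group was Dahl SS/JrHsdMcwi (SS/MCW, here MCW) and the second Dahl SS/JrHsdMcwiCrl (SS/CRL, here CRL), both on the chow labelled LS, with 4 pools of 3 rats in each. The groups used beside them were blood of both colonies at 10 weeks on HS chow, labelled as given for 3 weeks (other pools), kidney T cells of both colonies at 10 weeks on either chow (kidney libraries carry the same numbers in their titles as the blood libraries, and the labels do not say whether a shared number means the same rats), and blood of MCW rats on LS chow at 7 weeks. No genotype other than the strain and no treatment other than the chow is given. The cells are labelled circulating T cells, with no isolation method, and every pool mixes DNA of 3 rats. Libraries were reduced representation bisulfite libraries, which read CpG-rich fragments, and 13 or 14 of them shared a lane. The lane of each is not given, so that lane and colony cannot be told apart.

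Methylation of the cytosine in a CpG is copied at each cell division by Dnmt1 and removed with the help of the Tet enzymes. CpG-rich promoters are usually unmethylated, and gene bodies and repeats usually methylated. At imprinted loci the maternal and the paternal copy differ, so that a level near the middle is normal there. The ribosomal RNA genes (rDNA) lie in long arrays of near-identical copies, of which a part is methylated and silent.

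The table gives for each region the authors' mean level in either group, printed here in percent, their difference, printed in percentage points as CRL minus MCW, and an adjusted Mann-Whitney p. No value per pool, read count or coverage was at hand, so that no level has an SD and the depth is unknown. Calls required an adjusted p under 0.05 and a difference of 10 points or more in the authors' deposited table. The smallest Mann-Whitney p in the deposited table was 3.7e-14, whereas 0.0286 is the smallest two-sided p of an exact rank test between groups of 4 pools. The p-values therefore take CpGs of the same pools as separate observations and do not measure the spread between pools.

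The promoters of 3 imprinted genes called between the colonies are shown first, since TSS (promoter) regions carry most of the calls on imprinted genes. Capitals mark each CG, the letters at which methylation is read and which are the same on both strands. They are RefSeq sequences of build GRCr8, windows of 300 bases that span the annotated gene start, and were not aligned with the regions, whose positions are in build rn5.
Igf2r promoter: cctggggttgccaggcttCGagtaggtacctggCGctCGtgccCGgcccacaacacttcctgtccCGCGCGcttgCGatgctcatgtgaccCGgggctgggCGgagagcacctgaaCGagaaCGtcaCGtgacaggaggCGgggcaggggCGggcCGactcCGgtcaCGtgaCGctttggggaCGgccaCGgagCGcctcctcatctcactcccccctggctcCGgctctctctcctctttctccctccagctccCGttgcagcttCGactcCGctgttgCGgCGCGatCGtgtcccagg
Ndn promoter: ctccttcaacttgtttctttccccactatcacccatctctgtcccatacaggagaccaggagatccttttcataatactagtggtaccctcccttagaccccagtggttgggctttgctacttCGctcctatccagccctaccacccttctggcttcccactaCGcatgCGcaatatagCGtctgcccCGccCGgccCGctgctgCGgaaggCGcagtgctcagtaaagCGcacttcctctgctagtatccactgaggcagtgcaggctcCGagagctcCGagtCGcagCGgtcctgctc
Grb10 promoter: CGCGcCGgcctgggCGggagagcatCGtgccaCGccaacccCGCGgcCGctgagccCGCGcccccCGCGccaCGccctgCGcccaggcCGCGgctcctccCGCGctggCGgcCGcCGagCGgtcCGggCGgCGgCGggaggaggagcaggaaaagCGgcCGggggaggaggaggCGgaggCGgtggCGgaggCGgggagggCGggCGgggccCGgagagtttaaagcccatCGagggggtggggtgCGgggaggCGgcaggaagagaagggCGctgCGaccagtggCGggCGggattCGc

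The Igf2r window (chr1:50526628-50526927, plus strand) holds 30 CG, the Ndn window (chr1:125260809-125261108, plus strand) 14 and the Grb10 window (chr14:90816338-90816637, minus strand) 44. Among the 33469 promoter windows of the reference table, 10.3% hold at least as many CG as Igf2r, 33.5% as many as Ndn and 1.89% as many as Grb10, and the median is 7. Of the 56 genes named at called TSS regions, 34 matched a promoter sequence. The window with most CG in each of these genes had a median of 19.5 CG, whereas the median of 7 is over single windows. The letters CCGG, at which the enzyme most used for such libraries cuts, were found in any window of 79.4% of those genes and in 51.4% of all windows. Genes with a tested but not called TSS region were not counted this way.

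Blood T cells of CRL rats had higher methylation than those of MCW rats at most regions that differed. Of the 34559 regions 433 were called (1.25%), 369 of them higher in CRL (1.07%) and 64 lower (0.185%). The median level of the regions called higher went from 29.3% in MCW to 44.6% in CRL, and that of the regions called lower from 58.6% to 39.9%. The genome as a whole moved little: the mean level over all regions was 38.1% in MCW and 38.6% in CRL, the median difference was 0.20 points, and 88.8% of regions lay within 5 points. By sign alone, 54.3% of all regions were higher in CRL, 38.5% lower and 7.22% equal. Most calls were small, 45 reaching 20 points and 5 reaching 30 points. At an adjusted p under 0.05 in the authors' deposited table, 64 regions lay between 10 and 11 points, and 67 lay between 9 and 10 points.

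**Figure D1:**
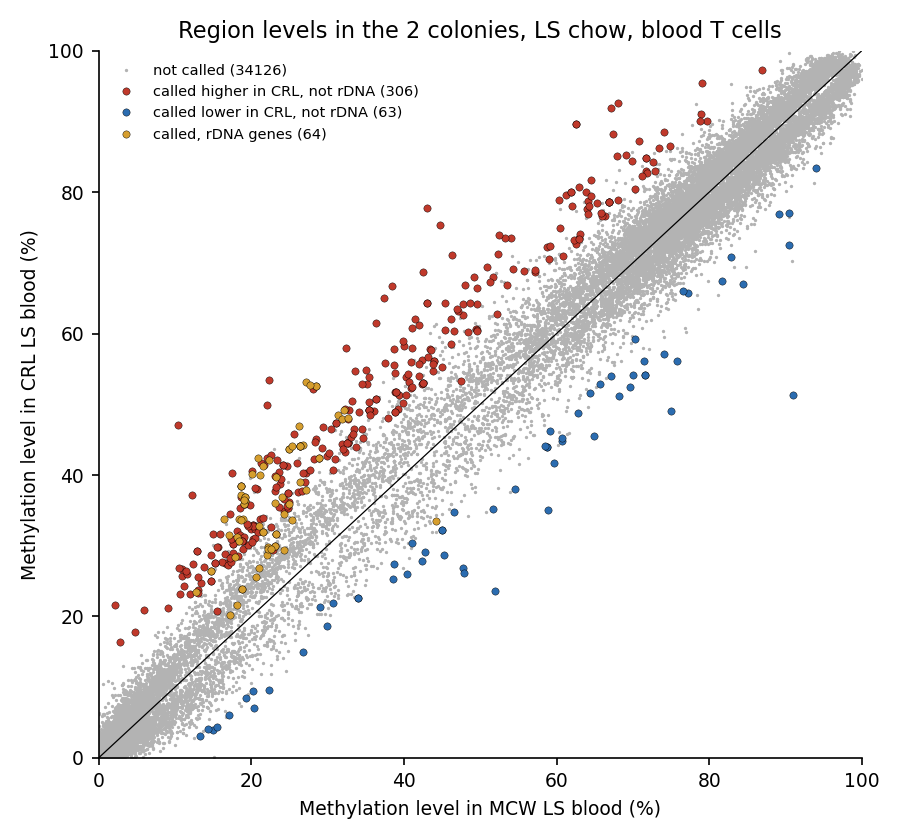
Methylation level of each region in CRL blood (vertical, percent) against MCW blood (horizontal, percent), both on LS chow. Grey points are the 34126 regions not called, red the 306 called higher and blue the 63 called lower outside the rDNA genes, yellow the 64 called rDNA regions, and the line marks equal levels; most called points lie above the line and between the extremes of the scale.

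The called regions were mostly neither unmethylated nor fully methylated. Of the 433, 311 (71.8%) had a mean level of the colonies between 20% and 60%, a range that holds 10.4% of all regions. The share called was 11.1% between 20% and 30% and 11.2% between 30% and 40%, against 0.784% between 70% and 80%. Among the 13763 regions under 5% no region was called, and a mean that low leaves little room for a difference of 10 points. Among the 2381 regions above 90% there was 1. Of the 97 called regions with at least 10 CpGs, 91 were higher in CRL.

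By the classes of the deposited table, 212 of 16364 intergenic regions were called (1.3%, 175 higher and 37 lower), 127 of 7253 intragenic ones (1.75%, 110 and 17) and 94 of 10942 TSS regions (0.859%, 84 and 10). TSS regions had the lowest share, and their median level was 0.65% in MCW and 0.785% in CRL. Within a mean level of 20% to 60% the order was turned, with 12.3% of TSS, 9.33% of intragenic and 7.06% of intergenic regions called. The rDNA genes bear on these shares: without them 0.484% of all TSS regions were called, and 8.4% of TSS against 7.47% of intragenic regions in the middle range.

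**Figure D2:**
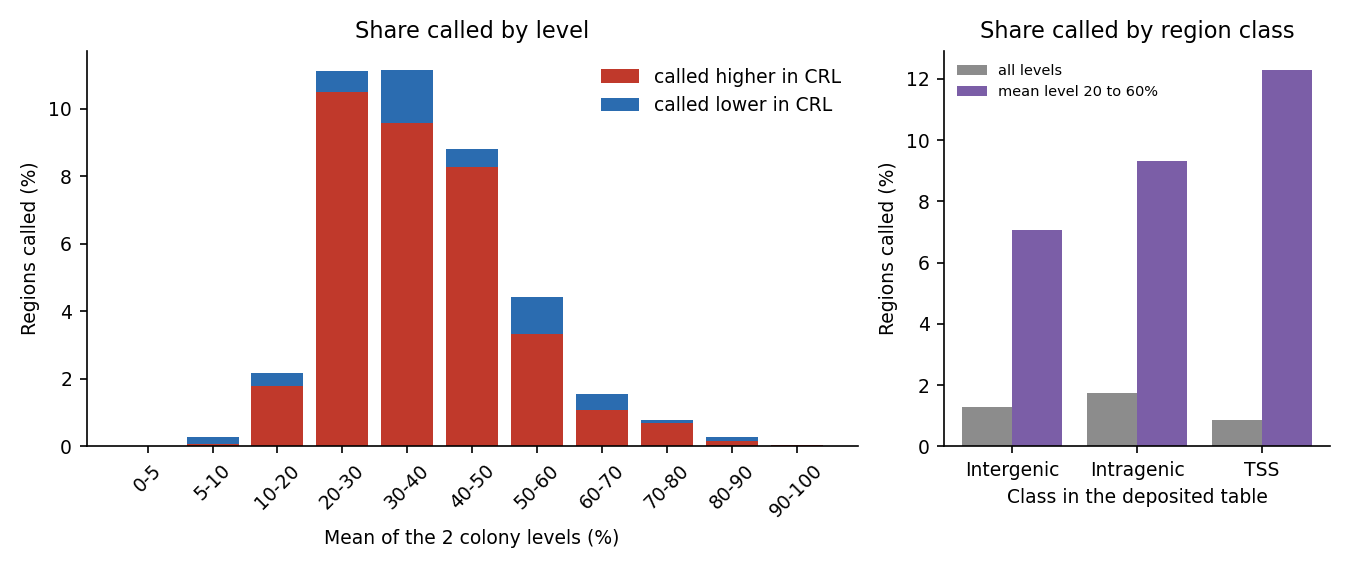
Share of regions called (vertical, percent) by the mean of both colony levels (left; red higher in CRL, blue lower) and by the class in the deposited table (right; grey all levels, purple a mean level of 20 to 60%). Calls gather between 20% and 60%, and TSS regions have the lowest share overall (0.859%) and the highest in the middle range (12.3%).

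A large group of calls lay in the rDNA. This group was chosen after its values were seen, as the regions named Rn5-8s, Rn45s, Rn28s, LOC310926 or LOC257642. The first 3 names are rat ribosomal RNA genes, and the LOC names share their loci. These names cover 278 regions, of which 64 were called, 63 higher in CRL and 1 lower (23.0%, against 1.25% of all regions). Including the regions not called, 258 of 278 were higher in CRL, and the median level was 21.6% in MCW and 27.7% in CRL. The median difference was 4.57 points, against 0.20 points over all regions. Level bears on this comparison. Among the 805 regions outside the rDNA genes at a mean level of 20% to 30%, the median difference was 3.94 points. Of those, 71.3% were higher in CRL and 8.94% were called. The quartiles of the rDNA levels were 18.1% and 25.2% in MCW and 21.8% and 33.6% in CRL, so that the ranges of the colonies overlapped.

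By name, 31 of 132 Rn5-8s regions were called, all higher in CRL. Of the 117 LOC310926 regions 30 were called higher and 1 lower, and of the 32 Rn45s regions 3 and 1. None of the 14 Rn28s and 16 LOC257642 regions passed, with median differences of 4.10 and 3.64 points. Some regions carry more than 1 of these names. The largest rDNA differences were at short Rn5-8s regions of 5 CpGs: chr14:46861707-46861726 was at 27.1% in MCW and 53.2% in CRL (adjusted p = 9.78e-06 in the authors' deposited table). In the HS blood table the region there had 23.7% and 31.4% and was not called. The region of 5 CpGs at chr5:95173263-95173282 had 27.7% and 52.7%, and in HS blood 23.4% and 47.8%, called in both. A pair of long regions was also called. The LOC310926 region of 118 CpGs at chr14:46857121-46857951 had 22.1% and 29.6% with a deposited difference of 15.8 points, and the Rn45s region of 77 CpGs at chr14:46818429-46819480 had 22.1% and 28.7% with a deposited difference of 14.0 points. The deposited differences of the pair of short regions were 26.0 and 25.0 points. For the long regions the deposited difference exceeds that of the printed levels.

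All rDNA regions fell in 4 places of rn5. These were chr14:46812647-46864149 (35 of 141 called), chr1:13497844-13561418 (10 of 75), chr5:95172227-95179193 (14 of 38) and chr6:39269602-39273999 (5 of 24). Regions within 100 kb of them that do not carry an rDNA name were called in 33 of 180 cases, 32 higher. Together the 4 places and their flanks held 97 of the 433 calls (22.4%), and 336 of the other 34101 regions were called (0.985%). Copies of near-identical sequence share reads, so that the rDNA regions are not independent of each other and cannot be assigned to single copies. At 14 of the 64 called rDNA regions the printed levels differ by under 10 points while the deposited difference is larger, against 7 of 369 other called regions. Counted on the levels alone, 259 of 278 rDNA regions were higher in CRL.

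The same direction was found in the other colony tables. In HS blood, whose pools are separate, 63 of 237 rDNA regions were called, all higher in CRL (26.6%, against 1.11% of that table), with medians of 19.0% in MCW and 26.6% in CRL. In kidney T cells on LS chow the levels were lower in both colonies, 11.0% and 13.9%, and 28 of 332 were called, all higher in CRL (8.43%, against 2.16% of that table, 1.65% higher and 0.51% lower). In kidney on HS chow 48 of 319 were called, all higher (15.0%, against 5.63%), with medians of 12.2% and 15.0%, in a table whose median difference over all regions was -1.02 points. The tables of chow and of age share MCW LS or CRL LS blood with the table described here, so that their values are only set beside it. For MCW blood they give 21.7% on LS and 18.8% on HS chow, with no region of 312 called (0.468% of that table were), 306 of 312 lower on HS chow, 67 at an adjusted p under 0.05 and 129 at an unadjusted p under 0.05 in the authors' deposited table. For CRL blood they give 28.0% on LS and 27.4% on HS chow, with 1 of 376 called (0.402% of that table). For MCW blood on LS chow they give 16.1% at 7 weeks and 20.5% at 10 weeks, with 3 of 197 called (0.664% of that table) and all 197 higher at 10 weeks. Every table was segmented anew, so that these medians are over different regions.

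**Figure D3:**
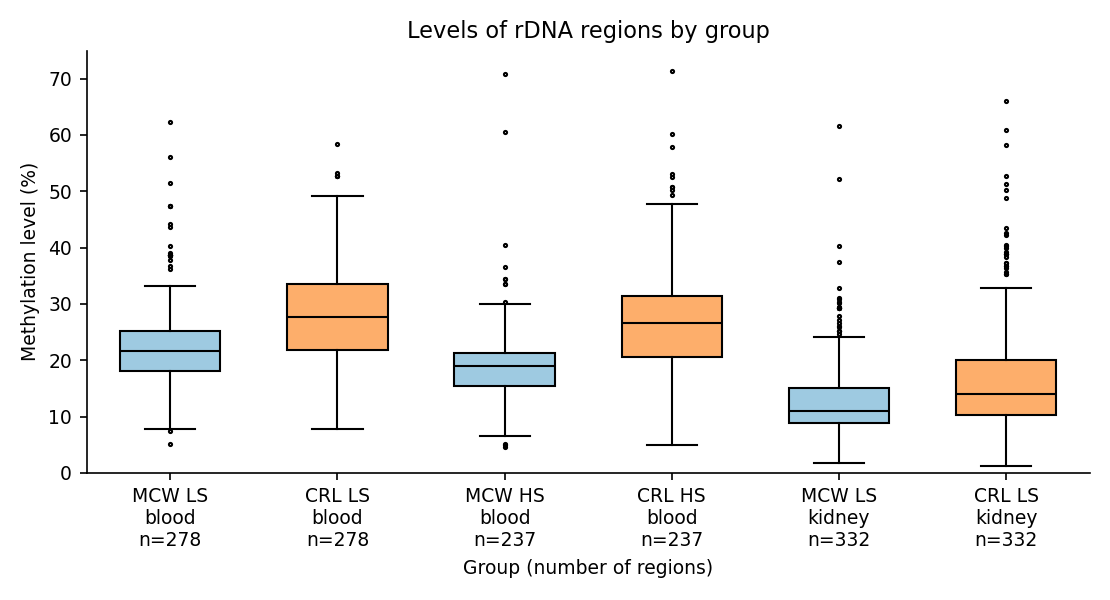
Methylation level of the rDNA regions (vertical, percent) in each group at 10 weeks; boxes span the quartiles over regions with the median as a line, whiskers reach to 1.5 times the box, and blue marks MCW and orange CRL. The CRL median is above the MCW median in LS blood (27.7% against 21.6%), HS blood (26.6% against 19.0%) and LS kidney (13.9% against 11.0%), with overlapping boxes.

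Among other genes, the largest increase in CRL was in the gene body of Shank3, which encodes a scaffold protein of synapses. Over 12 CpGs (chr7:130183084-130183154) its level was 10.4% in MCW and 47.1% in CRL (adjusted p = 1.01e-11 in the authors' deposited table). In HS blood it was 18.5% and 44.2%, called again. In LS kidney it was 2.91% and 1.16%, not called, and a shorter region of the age table had 20.6% in MCW blood at 7 weeks and 11.3% at 10 weeks. The Shank3 difference was thus present in both blood tables and absent from the LS kidney calls. It was that of 1 region: of the 10 Shank3 regions in LS blood 5 were higher in CRL and 5 lower, with a median difference of 0.31 points.

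Further increases were found in the next genes, most of them in both blood tables. Pik3cd, the catalytic subunit of the phosphoinositide kinase of leukocytes, had 22.0% and 49.9% in its body (5 CpGs), and 32.0% and 47.8% in HS blood, called in both. Of the 6 Pik3cd regions in LS blood 2 were higher in CRL and 4 lower, with a median difference of -3.55 points. Ccr7, the chemokine receptor that guides T cells to lymph nodes, had 23.7% and 38.7% (7 CpGs, chr10:86853256-86853329), and almost the same values in HS blood, 23.6% and 37.5%, called in both. Sdc1, a heparan sulphate proteoglycan known as a plasma cell marker, had 17.4% and 30.9%, and 7.56% and 19.9% in HS blood. Smarcc1, a subunit of the BAF chromatin remodeller, had a TSS region at 35.6% and 48.5%, and 25.4% and 49.4% in HS blood, again called in both. Mrc2, a collagen receptor of the mannose receptor family, had 36.4% and 61.5%, with 42.7% and 53.3% in HS blood, where it was not called. Smarcc1 was chosen after its values were seen.

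Sod3, the extracellular superoxide dismutase, was the only member of the salt, renin-angiotensin and oxidant list with a call. It had 68.1% in MCW and 92.5% in CRL over 5 CpGs (chr14:61072285-61072360). No HS blood or kidney region overlapped it, and at 7 weeks the level of MCW blood was 87.9%. The region was picked for an MCW level at 10 weeks far from that of CRL. Another MCW group can lie nearer to CRL by that choice alone, so that no effect of age is read from it. The same holds for the other values at 7 weeks given for called regions. Cyp4f5, a fatty acid hydroxylase of the cytochrome family, was listed at a pair of positions with identical values, 62.6% and 89.6%, and 67.2% and 80.6% in HS blood, called in both. In MCW blood at 7 weeks it was at 83.1%. Ank3, the membrane adaptor ankyrin G, had 67.2% and 92.0%, and Zfp444, a zinc finger protein, 12.2% and 37.2%, of which the second had 20.2% and 32.5% in HS blood and was not called.

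Further genes were called in both blood tables. Lingo3, a leucine-rich repeat membrane protein, had 2 such regions, at 35.0% and 54.9% and at 41.1% and 57.9%, with 27.1% and 51.1% and with 39.4% and 55.5% in HS blood. Icam5, an adhesion molecule of neurons, had 50.9% and 69.5%, and 52.8% and 66.5% in HS blood. Prpf18, a splicing factor, had 42.0% and 61.3% over 17 CpGs, and 40.6% and 54.4% in HS blood. In LS kidney Prpf18 was called the other way, at 15.7% in MCW and 4.58% in CRL. Hoxaas3, a noncoding RNA gene of the Hoxa cluster, had 6 called regions, all higher in CRL, which are 3 regions each at a pair of positions with the same or nearly the same values. The one of 9 CpGs had 43.9% and 56.1%, and in HS blood 47.3% and 45.1%, not called, while the other two were called again there. Vom2r4, a vomeronasal receptor, had 3 called regions with identical values, 66.9% and 78.6%, and was not called in HS blood.

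The 3 largest increases without a gene name were all called again in HS blood. The region of 13 CpGs at chr1:61419377-61419494 had 43.0% in MCW and 77.7% in CRL. It had 30.3% and 75.1% in HS blood and 33.7% and 62.3% in LS kidney, called in all 3 tables. The second, of 5 CpGs at chr5:161856685-161856699, had 22.3% and 53.4%, and 22.2% and 45.9% in HS blood. At the same position MCW blood had 38.0% at 7 weeks. The region of 19 CpGs at chr8:4308689-4308961 had 44.7% and 75.4%, with 32.8% and 71.0% in HS blood. The age table has shorter regions within the first and the third, with 82.5% in MCW blood at 7 weeks and 53.4% at 10 weeks in the one, and 71.5% and 44.3% in the other. The HS blood and kidney regions matched here share at least 1 base with the LS blood region, but can differ from it in length.

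Fewer regions were lower in CRL, and most of these did not repeat. The largest decrease was at an unnamed region of 5 CpGs, chr7:2375179-2375255, with 91.0% in MCW and 51.4% in CRL. Rfk, riboflavin kinase, had a TSS region at 47.9% and 26.1%, and 41.6% and 39.4% in HS blood. Rnls, renalase, a secreted flavoprotein studied for its link to blood pressure, had 68.2% and 51.2%, and 61.2% and 56.3% in HS blood. Tnfaip2, a gene induced by tumour necrosis factor, had 70.1% and 54.2% over 16 CpGs, and 63.1% and 65.4% in HS blood. Of the 4 Tnfaip2 regions in LS blood 3 were higher in CRL and 1 lower, with a median difference of 2.24 points. Neither Rfk, Rnls nor Tnfaip2 was called in HS blood. Sag, the arrestin of photoreceptors, had 69.6% and 52.4%, and Abl2 with its neighbour Tor3a had 84.4% and 67.0%. Pnpla1, a lipid enzyme of skin, had 60.7% and 45.2%. Ccdc40, a gene of motile cilia, had 59.6% and 41.8%, while in HS blood it had 34.5% and 44.7%, not called. The TSS region of Asna1 and RGD1564093 had 58.8% and 44.0% in blood but 24.2% and 43.2% in LS kidney, called higher there. RGD1309534 was the one gene called lower in both blood tables, with 65.7% and 52.8%, and 66.3% and 55.9% in HS blood.

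Of the 17 gene lists, imprinted genes held most of the calls. Of 42 imprinted genes with a region, 5 had a region called higher (Gnas, Grb10, Igf2r, Ndn and Zrsr1) and 1 of them, Grb10, also regions called lower. Of their 146 regions 12 were called (8.22%, against 1.25% of all), 10 higher and 2 lower, and their median difference was 0.46 points against 0.20 points. At a mean level of 20% to 80%, 40 of 74 imprinted regions were higher in CRL with a median difference of 1.55 points, and 6391 of 11042 other regions outside the rDNA were, with a median of 1.00 points and 2.87% called. The 74 regions had medians of 42.4% in MCW and 43.5% in CRL. Nearer to that level the share called outside the rDNA, imprinted regions included, was 9.08% at a mean level of 30% to 40% and 8.2% at 40% to 50%. The 8.22% of the imprinted list is over regions of all levels, so that it is not matched to these shares. The share called among the 74 regions was not counted.

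Igf2r, the receptor that clears insulin-like growth factor II, had the called imprinted region with most CpGs. Over 25 CpGs of its gene body (chr1:51547489-51547803) the level was 15.0% in MCW and 31.6% in CRL (adjusted p = 1.01e-11 in the authors' deposited table). HS blood had 11.9% and 29.0% there, called in both, and LS kidney 5.62% and 3.48%, not called. A shorter region of the age table had 18.4% in MCW blood at 7 weeks and 19.0% at 10 weeks. Its TSS region of 12 CpGs (chr1:51577244-51577335) had 29.9% and 42.7%, but 41.9% and 43.6% in HS blood, where it was not called. In HS kidney both regions were called the other way, the gene body region at 20.3% in MCW and 1.21% in CRL and the TSS region at 31.5% and 16.9%. The gene body region thus had the same order in both blood tables and the opposite one in HS kidney. Zrsr1, an imprinted gene related to a splicing factor, had a TSS region at 34.5% and 52.9%, and 34.7% and 46.9% in HS blood, called in both. It had 17.3% and 7.73% in LS kidney, not called, and 45.9% and 31.4% in HS kidney, called lower in CRL. The overlapping region of the age table had 50.4% in MCW blood at 7 weeks and 38.3% at 10 weeks, also called. Over all imprinted genes, 18 of 151 regions were called lower and 2 higher in CRL in HS kidney (13.2% called, against 5.63% of that table). Lower calls prevailed in that whole table, with 5.13% of its regions called lower and 0.506% higher. In LS kidney 9 of 147 imprinted regions were called higher and 2 lower (7.48%, against 2.16% of that table). Ndn, which encodes the growth suppressor necdin, had 13.8% and 27.0% over 5 CpGs of its TSS (chr1:124119398-124119477), with 24.8% in MCW blood at 7 weeks, and no HS blood region overlapped it.

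Gnas encodes the alpha subunit of the stimulatory G protein. It had 18 regions, 5 of which were called, all higher in CRL. The TSS region of 20 CpGs at chr3:178440555-178440694 had 23.1% in MCW and 37.8% in CRL, and 13.6% and 44.3% in LS kidney, called in both, while in HS blood it had 43.0% and 40.9%. The TSS region of 14 CpGs at chr3:178472211-178472304 had 12.3% and 27.4%, and 23.3% and 32.2% in HS blood. A TSS region of 5 CpGs had 49.6% and 64.1%, and 54.9% and 45.3% in HS blood. The remaining pair had 13.1% and 23.7%, and 64.2% and 78.1%. None of the 4 called Gnas regions that overlapped an HS blood region was called there, although 4 of the 20 Gnas regions of that table were called higher.

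Grb10, an adaptor that restrains insulin and growth factor signalling, had calls in both directions within 1238 bases. Its 9 TSS regions, in order of position, had 35.5%, 33.5%, 40.0%, 39.8%, 48.3%, 48.8%, 60.7%, 64.9% and 48.4% in MCW. In CRL the same regions had 39.3%, 46.5%, 42.9%, 36.4%, 40.8%, 41.0%, 44.8%, 45.5% and 56.2%. The MCW levels thus ranged from 33.5% to 64.9% and those of CRL from 36.4% to 56.2%. The second region was called higher in CRL, and the seventh and eighth were called lower (adjusted p = 0.0244 and 0.000109 in the authors' deposited table). None of these 3 had an authors' q-value under 0.05, and neither had the called regions of Ndn and Zrsr1. Among the calls on imprinted genes, both Igf2r regions and the Gnas regions of 20 and 14 CpGs did. In HS blood the second region had 30.4% and 40.1%, not called, and no region overlapped the seventh or eighth. The age table has a longer region there, which runs from the fourth to the start of the eighth, with 41.6% in MCW blood at 7 weeks and 50.6% at 10 weeks.

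**Figure D4:**
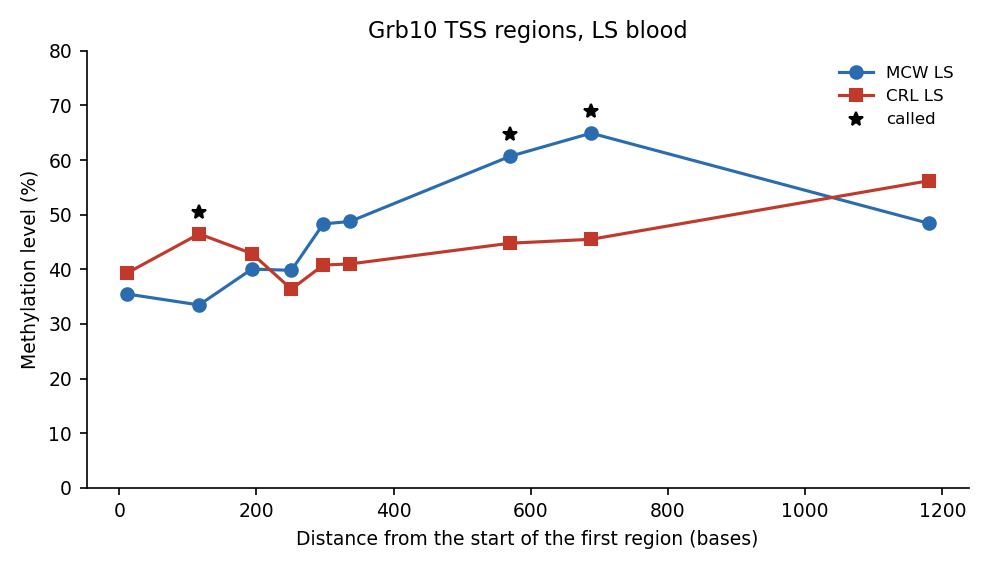
Methylation level (vertical, percent) of the 9 Grb10 TSS regions in LS blood against the distance of their middle from the start of the first (horizontal, bases); blue circles are MCW, red squares CRL, stars mark called regions, and lines join regions of a group. MCW reaches 64.9% where CRL has 45.5%, and the second region is higher in CRL (46.5% against 33.5%). No starred region has an authors' q-value under 0.05.

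A TSS region of the microRNA genes Mir341 and Mir1188, chosen after its values were seen, is shown with its sequences because it lies on chromosome 6, where both genes belong to an imprinted cluster. Over 11 CpGs (chr6:142896843-142896888) it had 23.2% in MCW and 38.3% in CRL. HS blood had 23.6% and 33.3%, not called, and LS kidney 9.19% and 14.8%, not called. Of the 2 regions listed for either gene in LS blood 1 was higher in CRL and 1 lower, with a median difference of 3.58 points. The sequences are those of RefSeq in GRCr8. Capitals mark each CG in the hairpin and the seed, bases 2 to 8, in the mature forms. The hairpin of 96 bases holds 12 CG, and the 3 mature forms have different seeds.
Mir341 hairpin: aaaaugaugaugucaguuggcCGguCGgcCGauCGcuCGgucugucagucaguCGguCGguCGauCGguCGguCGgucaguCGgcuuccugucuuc
rno-miR-341: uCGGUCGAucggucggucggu
rno-miR-1188-5p: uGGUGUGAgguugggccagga
rno-miR-1188-3p: cGAGGCUCcccaccaca

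A further set was formed by regions with the CpG number and span of the called region of Rn7sl1, which encodes the RNA of the signal recognition particle, and was also chosen after its values were seen. Whether the other positions hold copies of that gene was not tested. The 8 called regions with 11 CpGs and 118 bases were named Rn7sl1, Rps29 with Rn7sl1, Sdc2, Kalrn and Fam134b, or had no gene, and lay between 38.9% and 42.5% in MCW and between 51.8% and 53.9% in CRL. Of the 9 regions with that CpG number and span, 8 were called. In HS blood the matched regions had 45.2% to 49.6% in MCW and 47.9% to 50.8% in CRL, differences of 1.21 to 2.71 points, and none was called. In HS kidney all 8 were called the other way, at 36.9% to 42.1% in MCW and 19.8% to 24.7% in CRL. These positions hold near-equal values, as those of Cyp4f5 hold identical ones, so that they may not be separate measurements. The main count of 433 calls nevertheless holds each of them. Over all regions with a level above 0, 3424 of 34414 shared all values with another region. Counting such sets once left 398 calls, 338 higher and 60 lower, with near-equal but not identical values still counted separately.

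Other lists had few or no calls. Of the trafficking genes Ccr7 was called, 1 of 10 tested, and of the salt list Sod3, 1 of 25. None of the 15 T cell receptor and identity genes was called. Their 36 regions had a median difference of 1.68 points, and 11 of them an unadjusted p under 0.05 in the authors' deposited table. The median levels of these regions were 38.8% in MCW and 44.5% in CRL. Outside the rDNA, the median difference was 3.40 points at a mean level of 30% to 40% and 2.48 points at 40% to 50%. None of 14 helper lineage transcription factors was called (12 of 44 regions at an unadjusted p under 0.05 in the authors' deposited table), of 66 homeobox genes (74 of 287 regions), of 11 genes of the methylation machinery (18 of 25), of 9 one-carbon genes (7 of 23), of 6 activation genes (6 of 19) or of 10 innate genes (7 of 18). The same held for 13 protocadherin genes (3 of 28 regions), 6 antigen presentation genes (2 of 8) and 2 cytokine genes (0 of 2). The share of all regions at an unadjusted p under 0.05 was not counted. The counts at an unadjusted p, here and for the marker lists below, therefore have no background to be read against. At an adjusted p under 0.05 in the authors' deposited table there were 6071 of 34559, of which 2258 had a deposited difference of 0. The regions of the methylation machinery had median levels of 1.5e-05% in MCW and 0.0868% in CRL. Their median difference was 0 and none exceeded 6.36 points, so that a small p there need not mean a sizeable difference. Over all genes, 146 of 7371 had a called region (1.98%).

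No methylation enzyme or main T cell gene of a set of 12 was called, and 4 of the 12 had a region. Dnmt1, which copies methylation, had 83.2% and 84.8% at one gene body region and 76.1% and 74.5% at the other. Dnmt3a, a de novo enzyme, had 0.839% and 3.18% at its TSS (adjusted p = 0.0074 in the authors' deposited table) and 78.5% and 76.3% in its body, and Dnmt3b was listed at 0 in both when rounded. Cd8a, the coreceptor of cytotoxic T cells, had a TSS region at 40.3% and 48.3% (adjusted p = 0.258 in the authors' deposited table), and 43.1% and 57.0% in HS blood (adjusted p = 0.149 in the authors' deposited table). The Cd8a differences were 7.97 points in LS and 13.9 points in HS blood. The other 8 genes, among them Cd4, Cd3e, Foxp3 and Ifng, had no region.

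The lists of markers of other cells held no call. None of their 3 B cell, 8 myeloid and 3 platelet or erythroid genes was called, with 3 of 16, 8 of 29 and 2 of 13 regions at an unadjusted p under 0.05 in the authors' deposited table, and none of the 16 natural killer cell genes listed had a region. Outside the lists, Sdc1 was called as given above, and so was Ly49i3, a receptor gene of natural killer cells, at 24.2% in MCW and 36.7% in CRL (adjusted p = 0.028 in the authors' deposited table), not called in HS blood and chosen after its values were seen. The median differences of the B cell, myeloid and platelet or erythroid lists were -0.42, 0.00 and 0.34 points. Of 26 marker genes 7 had a region. Levels varied within these genes. The 3 regions of the T cell gene Cd2 had 0.321%, 79.1% and 83.6% in MCW and 1.83%, 78.4% and 84.4% in CRL. Cd247, a chain of the T cell receptor complex, had 25.3%, 14.3%, 78.1% and 74.8% in MCW and 31.9%, 19.4%, 73.5% and 68.6% in CRL, and Lcp2, an adaptor of that receptor, 9.00% and 12.5%. The B cell gene Pax5 had 0.646% and 0.709% over its region of 66 CpGs, and others of its regions had up to 77.9% in MCW and 80.3% in CRL. These levels do not establish which cells the pools held, and a different mix of T cell subsets in the colonies was not tested.

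The HS blood table compares the same colonies in other pools. Of the 433 calls 357 overlapped a region there by at least 1 base, and 138 of these were called in the same direction (38.7%, exact binomial 95% interval 33.6% to 43.9%, which takes regions as independent), 2 in the opposite direction and 217 were not called. The background is 374 of 33620 regions called in that table (1.11%), and 138 of 12990 for LS blood regions that were not called (1.06%). The sign was shared by 318 of 357 (89.1%). Of the calls higher in CRL, 134 of 316 were called higher again (0.946% of that table), and of the calls lower in CRL, 4 of 41 were called lower again (0.167% of that table), with 28 of 41 sharing the sign. The 316 had medians of 27.7% and 44.1% in LS blood and of 26.3% and 40.3% in HS blood. The 41 had 58.5% and 38.1% in LS blood and 44.8% and 43.1% in HS blood. Outside the rDNA, 96 of 293 were called again (32.8%) and 254 shared the sign, and in the rDNA 42 of 64, all 64 sharing it. The 2 opposite calls were Bc1, named for a noncoding RNA, at 60.5% and 75.0% in LS and 69.1% and 56.5% in HS blood, and an unnamed region at chr20:10851757-10851825.

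**Figure D5:**
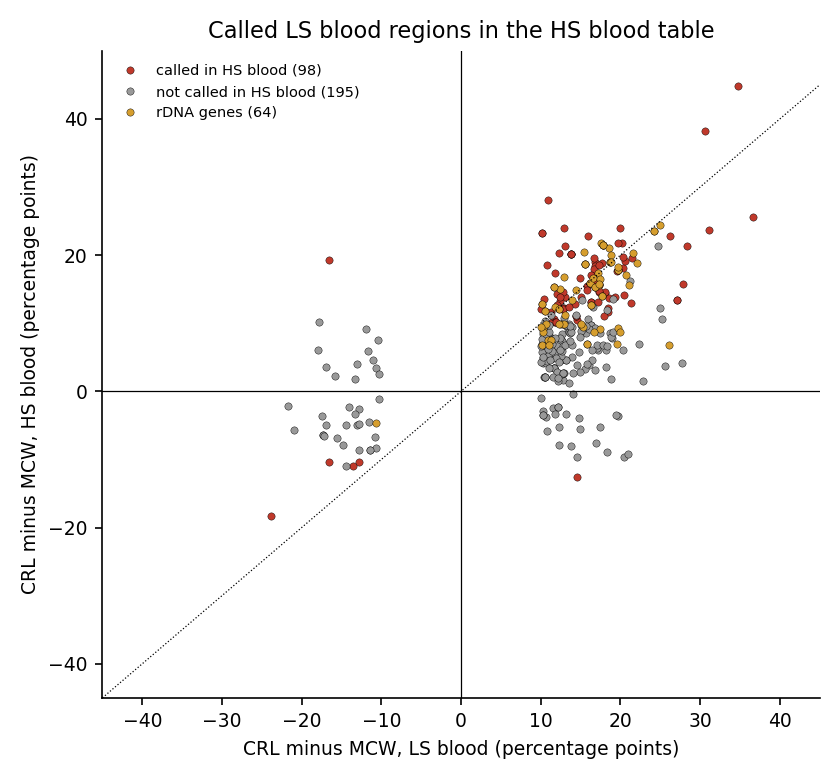
Difference between the colonies (CRL minus MCW, percentage points) in HS blood (vertical) against LS blood (horizontal) for the 357 called LS blood regions with an HS blood match; red was called in HS blood (98), grey was not (195), yellow are the rDNA genes (64), and the dotted line marks equal differences. Most points on the right lie above 0, 290 of 316, and those on the left spread on both sides of 0, 28 of 41 below it.

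Kidney T cells on LS chow came from libraries with the same title numbers. Of the 259 calls with a region in that table, 37 were called in the same direction (14.3%, against 2.16% of that table called in either direction) and 8 in the opposite one, and 172 shared the sign (66.4%). Outside the rDNA 118 of 198 shared it (59.6%). In HS kidney, where 5.13% of regions were called lower in CRL and 0.506% higher, 35 of 322 were called in the same direction and 76 in the opposite one. The share called again in the same direction was thus 38.7% in HS blood, 14.3% in LS kidney and 10.9% in HS kidney, and these shares were not tested against each other.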

How the data were processed

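Bisulfite libraries of 8 pools, 4 in each colony, stand behind the table, which the authors deposited with group means only. Build rn5 is named in the submitters' processing notes. The alignment and calling tools are unnamed in the labels (not given in the sources used here). Nothing states whether starts count from 0 or 1. Per the file headers, the deposited levels are a fraction from 0 to 1 and the deposited difference is on that scale, first minus second group, turned here to CRL minus MCW. The deposited table also gives p-value and q-value columns and the count of CpGs in a region, at least 5. Adjusting the deposited Mann-Whitney p-value by Benjamini-Hochberg gave the deposited adjusted p within 5e-16. The difference departed from that of the levels by over 0.2 points in 3.63% of regions. No per-pool value was at hand, so that no model was fitted.

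Regions of other tables were matched by at least 1 shared base, taking the one with most shared bases. Symbols were updated from RefSeq (GRCr8): of 7377, 6920 were current and 364 matched a synonym. Named genes were those of the 10 largest named differences in each direction, those with 3 or more called regions, called list members, those called in the same direction in HS blood or LS kidney, and 12 methylation and T cell genes. A gene that the rule names is not reported here. The members and lists were chosen with earlier results of these data known. Counting was tested on simulated data. Python 3.11.15, pandas 2.3.3, numpy 2.4.6 and scipy 1.17.1 were used. Alternatives were other limits, the q-value, the level columns, longer regions and stricter overlaps.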

Additional observations from a re-analysis of the deposited data

How the results depend on the processing

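The excess of calls higher in CRL held under every call limit tried that asks for a minimum difference. With a minimum of 20 points 45 regions were called (39 higher, 6 lower), with the authors' q-value under 0.05 74 (74 higher, 0 lower), and with at least 10 CpGs 97 (91 higher, 6 lower). With no minimum 6071 passed (2317 higher, 1496 lower). The other 2258 had a deposited difference of 0, and the levels of each were at most 1.12%. An adjusted p under 0.01, the level columns, 1 region per set of identical values and leaving out the rDNA gave 327, 412, 398 and 369 calls. The last of these was chosen after seeing the data, as was counting identical values once.

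The share called again in HS blood was 38.7%. It was 54.4% over regions with the same start and end, 50.2% with an overlap of 50% of both, 63.2% for differences of at least 20 points and 32.8% without the rDNA. In LS kidney 14.3% became 26.3% with the same start and end. The share of TSS, intragenic and intergenic regions called was 4.99%, 2.11% and 1.84% among regions with at least 10% in either group, and 0.0731%, 0.165% and 0.153% with a minimum of 20 points. The class with the highest share called thus changed from intragenic to TSS under the first. Without the rDNA 0.484% of TSS regions were called. The genes called in any list were 7, 64 with no minimum and 2 with at least 10 CpGs. Of the 221 named called regions, 45 also passed the q-value limit, 174 the limit of 0.01 and 207 the limit on the level columns.

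No paired analysis was possible because the tables hold group means only, and for the same reason no fit without a pool was run. The deposited tables hold no read depth, no spread over pools and no lane.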

Other observations

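Values of 1 group differ between tables that share it. Over regions with the same start and end, the MCW LS blood level was equal within 0.01 points in 82.4% of 4948 regions of the MCW chow table and in 83.1% of 4964 of the age table, and the CRL LS blood level in 79.9% of 4364 of the CRL chow table.

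A window on chromosome 1 held the most calls lower in CRL. Of the 5 called regions with no gene name between chr1:151966535 and 151976286, 4 were lower. The longest, of 54 CpGs, had 30.7% in MCW and 21.9% in CRL, and that of 11 CpGs had 47.7% and 26.8%, while a region of 13 CpGs before both had 11.0% and 25.8%. These regions were chosen after their values were seen.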
